A study of Mus musculus with 3 samples.

Results

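YUMM2.1, a mouse melanoma cell line, was set against the lines YUMM1.1 and YUMM1.7, and the genes for which it stood apart from both were described. On the log2(FPKM + 1) scale, a gene was taken when YUMM2.1 lay 2 or more (4-fold on that scale) above both other lines or 2 or more below both. FPKM is a fragment count divided by library size and transcript length, and a gene counted as expressed at 1 FPKM or more in at least 1 line. Of 11741 expressed symbols, 120 met the rule, 71 higher in YUMM2.1 (0.605% of expressed symbols) and 49 lower (0.417%). Predicted genes and small RNAs made up 11 of the higher and 6 of the lower genes. The others were ranked on each side by the smaller of their differences, and the 12 furthest on each side appear here only where a group holds them. The remaining 79 genes were 48 higher and 31 lower, and all of the higher and 29 of the lower genes are described by name. Since the FPKM values chose these genes, their differences are a description and carry no test.

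The study behind the lines concerned PD-1 blockade of melanoma grafted into mice, and 1 library of total RNA was made from each. With 1 library per line there is no spread between cultures to set a difference against. YUMM lines were established from melanomas of genetically engineered mice with an activated Braf allele, and they can be transplanted into mice of the same strain. The labels give no genotype, passage, treatment or tumor response for any library, and each line stands for the tumor it came from rather than for a genotype.

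Melanoma arises from melanocytes, pigment cells of the neural crest. Melanoma cells in culture can keep a pigment program driven by Mitf or move toward neural crest-like and mesenchymal states, in which matrix, contractile and cytokine genes are expressed. The INK4A/ARF locus Cdkn2a, which encodes inhibitors of the cell cycle and activators of p53, is among the loci most often lost in this tumor.

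The spacing of low FPKM values implied about 87.5 M fragments in YUMM2.1, 68.8 M in YUMM1.1 and 46.2 M in YUMM1.7, so that 3 fragments on a 2 kb transcript corresponded to 0.0171, 0.0218 and 0.0324 FPKM in the same order, counting error only. A value listed at 0 is reported as listed, because abundant genes such as Rpl41 were also listed at 0 in YUMM1.7. The melanin enzyme genes were low in all lines, as Tyr was between 0.127 and 0.279 FPKM and Dct and Tyrp1 were below 0.04 FPKM in all of them. Summed FPKM over the melanocyte marker list was 88.1 in YUMM2.1, 157 in YUMM1.1 and 1.85 in YUMM1.7, with 8, 10 and 13 of 13 listed markers below 1 FPKM, and Sox10, the neural crest factor, was the largest part of it in YUMM2.1 and YUMM1.1 (44.3 FPKM in YUMM2.1, 107 FPKM in YUMM1.1 and 0.00821 FPKM in YUMM1.7). Mlph and Rab38, which act in melanosome transport and in the delivery of melanosome proteins, also separated YUMM1.7, with 23.5 FPKM in YUMM2.1, 28.8 FPKM in YUMM1.1 and 0.751 FPKM in YUMM1.7 for Mlph and 12.7 FPKM in YUMM2.1, 19.6 FPKM in YUMM1.1 and 0.179 FPKM in YUMM1.7 for Rab38.

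The count for YUMM2.1 was close to that for YUMM1.1, which lay beyond both other lines for 68 higher genes (0.579%) and 67 lower genes (0.571%), whereas YUMM1.7 did so for 321 (2.73%) and 191 (1.63%). Scaling affected the balance of the 2 sides. Rescaling each line to a common FPKM sum gave 174 higher and 24 lower genes for YUMM2.1, a common upper quartile gave 93 and 39, and centering within classes of transcript length gave 81 and 31. The median difference of all expressed genes was -0.05 against YUMM1.1 and -0.02 against YUMM1.7 as deposited, 0.43 and 1.08 after the sum scaling, and 0.09 and 0.18 after the upper quartile scaling. All 48 higher genes kept a difference of 2 under the sum, upper quartile and median ratio scalings, while 8, 22 and 27 of the 31 lower genes did. Measured from the shifted medians, 34 higher and 24 lower genes kept it after the sum scaling.

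**Figure D1:**
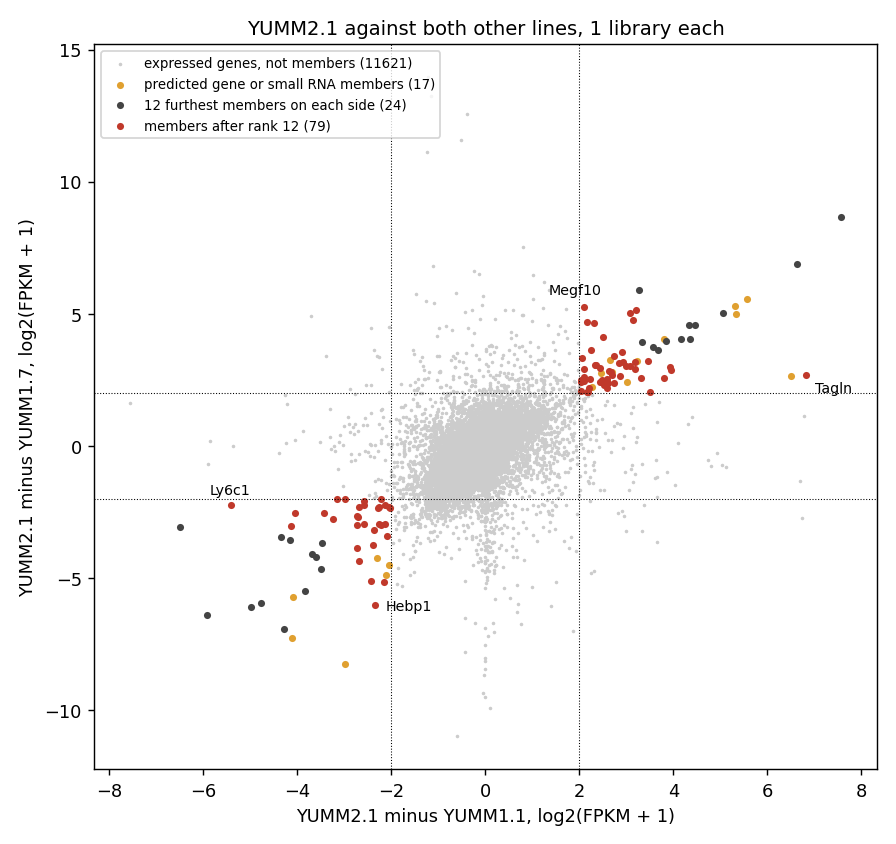
Difference of YUMM2.1 from YUMM1.1 (x axis) and from YUMM1.7 (y axis) in log2(FPKM + 1) for the 11741 expressed symbols, 1 library per line. Dotted lines mark differences of 2, and the 120 genes beyond both other lines occupy the upper right and lower left corners, with Tagln furthest to the right among the 79 genes after rank 12.

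Matrix genes were among the higher genes, and counts for the whole matrix list, which was mixed, are given further below. Thbs1, which encodes thrombospondin 1, a secreted regulator of adhesion and of latent TGF-beta, had 56.5 FPKM in YUMM2.1, against 6.97 FPKM in YUMM1.1 and 5.58 FPKM in YUMM1.7. Its relative Thbs2, among the 12 furthest, had 17.4 FPKM in YUMM2.1, against 0.02196 FPKM in YUMM1.1 and 0.123 FPKM in YUMM1.7. Both thrombospondins were highest in YUMM2.1, whereas Cd47, a receptor for thrombospondin 1, had 31.4 FPKM in YUMM2.1, 41.3 FPKM in YUMM1.1 and 43.8 FPKM in YUMM1.7. Col12a1, a collagen that associates with fibrils, was at 14.9 FPKM in YUMM2.1, against 0.139 FPKM in YUMM1.1 and 1.71 FPKM in YUMM1.7. Npnt, which encodes nephronectin, a matrix ligand of integrins, reached 10.7 FPKM in YUMM2.1, against 0.291 FPKM in YUMM1.1 and 0.535 FPKM in YUMM1.7. Col12a1 stayed above 1 FPKM in YUMM1.7, while Npnt was below 1 FPKM in both other lines. Olfml3, a secreted olfactomedin-domain protein, had 12.7 FPKM in YUMM2.1, against 0.7904 FPKM in YUMM1.1 and 0.523 FPKM in YUMM1.7. Ccbe1, a secreted protein needed for lymphatic vessel growth, had 8.87 FPKM in YUMM2.1, against 0.705 FPKM in YUMM1.1 and 0.983 FPKM in YUMM1.7. These genes joined Fbln2 and Col11a1, whose values in the other lines were below 0.3 FPKM, so the group spans collagens, a fibulin, thrombospondins and integrin ligands.

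Contractile and cytoskeletal genes differed from one another in how YUMM1.7 behaved. Tagln, an actin-binding protein of smooth muscle, had 213 FPKM in YUMM2.1, against 0.886 FPKM in YUMM1.1 and 31.98 FPKM in YUMM1.7, which was 240.2-fold the YUMM1.1 value and 6.65-fold the YUMM1.7 value. Acta2 and Myl9, smooth muscle actin and a myosin light chain, followed the same order with 326 FPKM in YUMM2.1, 1.996 FPKM in YUMM1.1 and 149.6 FPKM in YUMM1.7 for Acta2 and 23.9 FPKM in YUMM2.1, 0.1895 FPKM in YUMM1.1 and 10.7 FPKM in YUMM1.7 for Myl9, but missed the threshold against YUMM1.7. For these 3 genes YUMM1.1 was the low line and YUMM1.7 lay between. Myh10, the heavy chain of nonmuscle myosin IIB, had 6.499 FPKM in YUMM2.1, against 0.118 FPKM in YUMM1.1 and 0.444 FPKM in YUMM1.7. Its paralog Myh9, the heavy chain of IIA, had similar deposited values, with 68.8 FPKM in YUMM2.1, 70.1 FPKM in YUMM1.1 and 68.2 FPKM in YUMM1.7, which the sum scaling would set apart by the shifts given above. Tubb2b, a beta tubulin best known from neurons, had 21.6 FPKM in YUMM2.1, against 4.25 FPKM in YUMM1.1 and 2.73 FPKM in YUMM1.7. It shares 39.3% of its 50-base words, the stretches of 50 bases in its annotated transcripts, with other genes, mostly Tubb2a, which had 45.2 FPKM in YUMM2.1, 142 FPKM in YUMM1.1 and 41.9 FPKM in YUMM1.7, so the split between these near-copies is uncertain. Tmsb15a, a thymosin that binds actin monomers, had 4.67 FPKM in YUMM2.1, against 0.384 FPKM in YUMM1.1 and 0 FPKM in YUMM1.7. Fam107a, a stress-induced protein that binds actin, was listed at 7.05 FPKM in YUMM2.1, 0.00474 FPKM in YUMM1.1 and 0 FPKM in YUMM1.7. Akap12, a scaffold for protein kinases at the cell cortex, had 33.5 FPKM in YUMM2.1, against 5.901 FPKM in YUMM1.1 and 0.382 FPKM in YUMM1.7. Arap2, a GTPase-activating protein for Arf6, had 5.598 FPKM in YUMM2.1, 0.548 FPKM in YUMM1.1 and 0.199 FPKM in YUMM1.7, and 13.3% of its words occur in a predicted gene. Of the genes past the threshold in this group, Tagln, Tubb2b and Akap12 exceeded 1 FPKM in another line, and the others did not.

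Several secreted growth and immune factors were higher in YUMM2.1. Pdgfb, the ligand that activates both PDGF receptors, had 8.37 FPKM in YUMM2.1, against 0.0305 FPKM in YUMM1.1 and 0.0376 FPKM in YUMM1.7. Pdgfc and Pdgfd were also highest in YUMM2.1 but by less than the threshold, at 12.7 FPKM in YUMM2.1, 4.51 FPKM in YUMM1.1 and 3.55 FPKM in YUMM1.7 for Pdgfc and 4.83 FPKM in YUMM2.1, 0 FPKM in YUMM1.1 and 0.995 FPKM in YUMM1.7 for Pdgfd. Pdgfa was high in both YUMM2.1 and YUMM1.1 (185 FPKM in YUMM2.1, 149 FPKM in YUMM1.1 and 25.6 FPKM in YUMM1.7). For the receptor genes YUMM1.7 was the high line, with 0.1701 FPKM in YUMM2.1, 0.202 FPKM in YUMM1.1 and 13.9 FPKM in YUMM1.7 for Pdgfra and 1.88 FPKM in YUMM2.1, 0.0107 FPKM in YUMM1.1 and 13.02 FPKM in YUMM1.7 for Pdgfrb. The ligand and receptor transcripts of the family were therefore highest in different lines. Cxcl14, a chemokine of epithelia and fibroblasts, was listed at 7.41 FPKM in YUMM2.1, 0 FPKM in YUMM1.1 and 0.0253 FPKM in YUMM1.7. Ccl6, a rodent CC chemokine, had 11.02 FPKM in YUMM2.1, against 0.598 FPKM in YUMM1.1 and 0.0333 FPKM in YUMM1.7. Both chemokines were below 1 FPKM in the other lines. Chrdl1, an antagonist of BMP ligands, had 4.68 FPKM in YUMM2.1, against 0.0108 FPKM in YUMM1.1 and 0.0103 FPKM in YUMM1.7. In the list of 32 expressed cytokine and chemokine genes, 5 lay 1 or more (2-fold) above both lines, against 3.13% of all expressed genes. Below both lay 2, against 4.15%. Against YUMM1.1 alone 13 lay 1 or more above and 2 below, and against YUMM1.7 alone 9 and 11. The count of 5 became 8 after the sum scaling, when 14.1% of all expressed genes lay above both, and 4 with a pseudocount of 5, when 0.928% did. Of the 5, Il6 and Cxcl14 were already chosen by the rule. The 3 that are not among the genes described so far or among the 12 furthest were Il33 (4.52 FPKM in YUMM2.1, 0.142 FPKM in YUMM1.1 and 0.459 FPKM in YUMM1.7), Lif (11.3 FPKM in YUMM2.1, 2.28 FPKM in YUMM1.1 and 1.297 FPKM in YUMM1.7) and Ccl7 (118 FPKM in YUMM2.1, 39.3 FPKM in YUMM1.1 and 5.26 FPKM in YUMM1.7). Il18 and Il4ra were the lower ones, with 0.5901 FPKM in YUMM2.1, 3.75 FPKM in YUMM1.1 and 3.88 FPKM in YUMM1.7 for Il18 and 0.953 FPKM in YUMM2.1, 4.39 FPKM in YUMM1.1 and 4.59 FPKM in YUMM1.7 for Il4ra.

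Innate immune and leukocyte-associated genes formed a further group. Pycard, the ASC adaptor that assembles inflammasomes, was listed at 14.1 FPKM in YUMM2.1, 0 FPKM in YUMM1.1 and 0.927 FPKM in YUMM1.7. Its effector Casp1 ran the other way, with 3.41 FPKM in YUMM2.1, 30.8 FPKM in YUMM1.1 and 5.54 FPKM in YUMM1.7, and the sensor gene Nlrp3 was listed at 0 in all lines. Gsdmd, the pore-forming target of Casp1, had 0.0278 FPKM in YUMM2.1, 0 FPKM in YUMM1.1 and 19.3 FPKM in YUMM1.7. The adaptor and its effectors were thus not highest in the same line. Lyz2, lysozyme of myeloid cells, had 25.9 FPKM in YUMM2.1, against 4.96 FPKM in YUMM1.1 and 0.04797 FPKM in YUMM1.7, and 15.4% of its words are shared with Lyz1. Amica1 (Jaml), an adhesion molecule of leukocytes, was listed at 4.42 FPKM in YUMM2.1, 0 FPKM in YUMM1.1 and 0.0183 FPKM in YUMM1.7. Megf10, an engulfment receptor of glia, had 47.2 FPKM in YUMM2.1, against 10.3 FPKM in YUMM1.1 and 0.246 FPKM in YUMM1.7. Rnf128, a ubiquitin ligase known as GRAIL from T cells, had 9.79 FPKM in YUMM2.1, against 0.0821 FPKM in YUMM1.1 and 0.833 FPKM in YUMM1.7. Nt5e, the ectoenzyme CD73 that produces adenosine, had 7.47 FPKM in YUMM2.1, against 0.648 FPKM in YUMM1.1 and 0.0244 FPKM in YUMM1.7. Entpd1 (CD39), which acts before it in the pathway, was below 0.05 FPKM in all lines. In the leukocyte marker list, 16 of 19 markers were below 1 FPKM in YUMM2.1, 18 in YUMM1.1 and 18 in YUMM1.7, and the summed values were 33.6, 5.57 and 8.44 FPKM in that order. The 3 markers at 1 FPKM or more in YUMM2.1 lay 1 or more above both lines there, and besides Lyz2 they were the macrophage marker Cd68 (4.27 FPKM in YUMM2.1, 0.362 FPKM in YUMM1.1 and 0.687 FPKM in YUMM1.7) and the leukocyte tetraspanin Cd53 (3.01 FPKM in YUMM2.1, 0.0215 FPKM in YUMM1.1 and 0.658 FPKM in YUMM1.7). Cd14, the other expressed marker of the list, was high in YUMM1.7 instead. It had 0.00843 FPKM in YUMM2.1, 0 FPKM in YUMM1.1 and 6.21 FPKM in YUMM1.7. The pan-leukocyte marker Ptprc was at 0.00217 FPKM in YUMM2.1, and Cd3e, Itgam and Tyrobp were listed at 0 there. The part of any leukocyte RNA in these genes was not tested.

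Receptors and channels were also among the higher genes. Ramp1, which pairs with Calcrl to form the receptor for the neuropeptide CGRP, had 10.1 FPKM in YUMM2.1, against 0.00594 FPKM in YUMM1.1 and 0.187 FPKM in YUMM1.7 and was the first of the 48 by rank. Its partner Calcrl was low in all lines, at 0.555 FPKM in YUMM2.1, 0.262 FPKM in YUMM1.1 and 1.301 FPKM in YUMM1.7, and the sister gene Ramp3 was abundant only in YUMM1.7, at 0.139 FPKM in YUMM2.1, 0.533 FPKM in YUMM1.1 and 104 FPKM in YUMM1.7. S1pr3, a receptor for sphingosine 1-phosphate, was listed at 7.32 FPKM in YUMM2.1, 0.645 FPKM in YUMM1.1 and 0 FPKM in YUMM1.7. S1pr2 had similar deposited values, at 28.4 FPKM in YUMM2.1, 31.6 FPKM in YUMM1.1 and 27.6 FPKM in YUMM1.7. Ramp1 and S1pr3 were highest in YUMM2.1, and these relatives were not. Kcnj12, an inwardly rectifying potassium channel, had 6.58 FPKM in YUMM2.1, against 0.241 FPKM in YUMM1.1 and 0.456 FPKM in YUMM1.7. Glrb, the beta subunit of the glycine receptor, had 9.001 FPKM in YUMM2.1, against 1.34 FPKM in YUMM1.1 and 0.318 FPKM in YUMM1.7. Grik5, a kainate receptor subunit, had 5.59 FPKM in YUMM2.1, against 0.403 FPKM in YUMM1.1 and 0.147 FPKM in YUMM1.7. These are genes best known from neurons and muscle, and all were below 10 FPKM in YUMM2.1. Nkain2, a membrane protein that interacts with the sodium pump, had 6.68 FPKM in YUMM2.1, against 0.404 FPKM in YUMM1.1 and 0.00686 FPKM in YUMM1.7. Lrrc4b, an adhesion protein of synapses, was listed at 3.61 FPKM in YUMM2.1, 0.00553 FPKM in YUMM1.1 and 0 FPKM in YUMM1.7. Slc25a23, a mitochondrial carrier of ATP and phosphate, had 4.75 FPKM in YUMM2.1, against 0.406 FPKM in YUMM1.1 and 0.0783 FPKM in YUMM1.7. Among 29 expressed genes of the ion channel and transporter list, 5 lay 1 or more above both lines and 0 below, against 3.13% and 4.15% of all expressed genes, and they were Fxyd1, Fxyd3, Slc2a3, Atp1b2 and Slc16a1. The count of 5 became 13 after the sum scaling, when 14.1% of all expressed genes lay above both, and 2 with a pseudocount of 5, when 0.928% did. Slc2a3, a glucose transporter, had 2.45 FPKM in YUMM2.1, 0.0891 FPKM in YUMM1.1 and 0.0384 FPKM in YUMM1.7, and Slc16a1, a lactate transporter, had 23.7 FPKM in YUMM2.1, 7.48 FPKM in YUMM1.1 and 9.67 FPKM in YUMM1.7.

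A few higher genes belong to pigment biology. Mlana, a melanosome protein and melanoma antigen, was listed at 6.18 FPKM in YUMM2.1, 0.159 FPKM in YUMM1.1 and 0 FPKM in YUMM1.7, although the enzymes of melanin synthesis stayed near 0. Tcfec (Tfec), a transcription factor of the Mitf family, had 6.65 FPKM in YUMM2.1, against 0.177 FPKM in YUMM1.1 and 0.183 FPKM in YUMM1.7. Mitf itself was low in every line, at 1.23 FPKM in YUMM2.1, 0.188 FPKM in YUMM1.1 and 0.617 FPKM in YUMM1.7.

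Enzymes of retinoid, steroid and redox metabolism made up another group of higher genes. Rdh5, a retinol dehydrogenase, had 17.5 FPKM in YUMM2.1, against 1.92 FPKM in YUMM1.1 and 1.69 FPKM in YUMM1.7, and 16.3% of its words are shared with Bloc1s1. Aldh1a1, which oxidizes retinaldehyde, led all 71 higher genes, while Aldh1a3, with the same activity, had 8.03 FPKM in YUMM2.1, 36.5 FPKM in YUMM1.1 and 1.19 FPKM in YUMM1.7. In the retinoid list, 3 of 13 expressed genes lay 1 or more above both lines (Aldh1a1, Rdh5 and Tgm2) and 1 lay below (Rarg). Of all expressed genes, 3.13% lay above and 4.15% below. Aldh1a1 and Rdh5 were already chosen by the rule. The count of 3 became 4 after the sum scaling, when 14.1% of all expressed genes lay above both. It became 2 with a pseudocount of 5, when 0.928% did. The 1 below became 0 under both settings. Sepp1 (Selenop), the plasma carrier of selenium, had 102 FPKM in YUMM2.1, against 5.67 FPKM in YUMM1.1 and 13.3 FPKM in YUMM1.7, which was 18.1-fold the YUMM1.1 value and 7.72-fold the YUMM1.7 value. Ggt7, of the gamma-glutamyltransferase family, had 8.76 FPKM in YUMM2.1, against 0.336 FPKM in YUMM1.1 and 0.556 FPKM in YUMM1.7. Cyp2c55, a cytochrome P450, had 17.3 FPKM in YUMM2.1, against 2.86 FPKM in YUMM1.1 and 0.472 FPKM in YUMM1.7. Of Sepp1, Ggt7 and Cyp2c55, Sepp1 had the highest value in each line. Cyp7b1, an oxysterol hydroxylase, was listed at 3.54 FPKM in YUMM2.1, 0 FPKM in YUMM1.1 and 0.0944 FPKM in YUMM1.7. Pde1a, a phosphodiesterase regulated by calmodulin, had 11.4 FPKM in YUMM2.1, against 0.0991 FPKM in YUMM1.1 and 2.06 FPKM in YUMM1.7. Rragb, a Rag GTPase that signals amino acids to mTORC1, had 3.9997 FPKM in YUMM2.1, 0.121 FPKM in YUMM1.1 and 0.228 FPKM in YUMM1.7.

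Akr1c12 and Akr1c13 encode aldo-keto reductases and stand close together on chromosome 13. Akr1c12 had 5.69 FPKM in YUMM2.1, against 0.108 FPKM in YUMM1.1 and 0.1596 FPKM in YUMM1.7, and Akr1c13 had 23.02 FPKM in YUMM2.1, against 4.77 FPKM in YUMM1.1 and 1.38 FPKM in YUMM1.7. Other members of the cluster did not share the pattern, since Akr1c18 had 2.89 FPKM in YUMM2.1, 0.143 FPKM in YUMM1.1 and 6.77 FPKM in YUMM1.7 and Akr1c14 was listed at 0 FPKM in YUMM2.1, 0 FPKM in YUMM1.1 and 2.31 FPKM in YUMM1.7. The transcripts of Akr1c12 and Akr1c13 share 28.6% of their 50-base words with each other, so fragments could be split between them. Tmem176a and Tmem176b, which encode related membrane proteins known from dendritic cells, lie side by side on chromosome 6. Tmem176b had 34.8 FPKM in YUMM2.1, against 2.89 FPKM in YUMM1.1 and 0.0237 FPKM in YUMM1.7, and Tmem176a had 28.8 FPKM in YUMM2.1, against 2.36 FPKM in YUMM1.1 and 0.0952 FPKM in YUMM1.7. In these 2 genes the order was the same, with YUMM1.1 between YUMM2.1 and YUMM1.7. The 250 bases before each annotated start are shown for both pairs, because the genes of each pair differed in the same direction and have upstream sequence in common (RefSeq, GRCm38.p6, each written 5′ to 3′ on its own strand). The Tmem176 genes are transcribed away from each other with starts 345 bases apart, so that 155 bases, in capitals, lie in both windows and are reverse complements in the printed lines. In the Akr1c windows, capitals mark runs of at least 12 bases found in the other window, which cover 80.8% of the Akr1c12 window and 86% of the Akr1c13 window. The windows are chr6:48841233-48841482 (plus strand) for Tmem176a, chr6:48841138-48841387 (minus strand) for Tmem176b, chr13:4279400-4279649 (minus strand) for Akr1c12 and chr13:4190937-4191186 (plus strand) for Akr1c13.
Tmem176a: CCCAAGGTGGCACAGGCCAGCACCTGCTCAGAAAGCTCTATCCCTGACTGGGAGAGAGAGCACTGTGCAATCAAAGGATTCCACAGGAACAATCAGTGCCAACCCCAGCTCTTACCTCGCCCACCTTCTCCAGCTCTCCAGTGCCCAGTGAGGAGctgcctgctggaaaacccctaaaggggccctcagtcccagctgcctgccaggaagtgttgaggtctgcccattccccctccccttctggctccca
Tmem176b: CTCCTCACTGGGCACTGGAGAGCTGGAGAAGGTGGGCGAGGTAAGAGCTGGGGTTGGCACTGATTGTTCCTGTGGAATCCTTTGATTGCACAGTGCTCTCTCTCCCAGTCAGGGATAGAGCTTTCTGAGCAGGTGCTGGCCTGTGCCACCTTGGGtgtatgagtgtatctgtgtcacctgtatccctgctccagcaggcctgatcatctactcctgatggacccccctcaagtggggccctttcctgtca
Akr1c12: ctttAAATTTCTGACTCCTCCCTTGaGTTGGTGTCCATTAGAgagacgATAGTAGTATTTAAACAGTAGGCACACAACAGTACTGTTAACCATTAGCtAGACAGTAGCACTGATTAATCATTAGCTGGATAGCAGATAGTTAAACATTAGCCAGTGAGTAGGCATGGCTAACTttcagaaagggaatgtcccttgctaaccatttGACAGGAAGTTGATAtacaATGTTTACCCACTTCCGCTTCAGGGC
Akr1c13: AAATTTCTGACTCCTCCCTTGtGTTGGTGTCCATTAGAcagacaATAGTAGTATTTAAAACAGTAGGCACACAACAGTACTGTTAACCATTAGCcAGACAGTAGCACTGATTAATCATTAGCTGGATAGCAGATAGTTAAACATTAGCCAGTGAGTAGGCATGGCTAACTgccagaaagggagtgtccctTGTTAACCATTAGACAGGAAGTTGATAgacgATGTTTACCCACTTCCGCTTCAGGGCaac

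The most abundant of the 48 higher genes after rank 12 was a noncoding RNA. Neat1, the scaffold of nuclear paraspeckles, had 293 FPKM in YUMM2.1, against 43.02 FPKM in YUMM1.1 and 26.9 FPKM in YUMM1.7, which was 6.82-fold the YUMM1.1 value and 10.9-fold the YUMM1.7 value. Malat1, its neighbor on chromosome 19, differed by less, at 79.9 FPKM in YUMM2.1, 38.99 FPKM in YUMM1.1 and 34.9 FPKM in YUMM1.7. Hist3h2ba, which encodes a histone H2B, had 44.6 FPKM in YUMM2.1, against 4.41 FPKM in YUMM1.1 and 0.389 FPKM in YUMM1.7, and 22.1% of its words are shared with a pseudogene. The remaining higher genes were Klhl30, of the kelch-like family (17.9 FPKM in YUMM2.1, 2.33 FPKM in YUMM1.1 and 0.0805 FPKM in YUMM1.7), Speer3 (5.31 FPKM in YUMM2.1, 0.0563 FPKM in YUMM1.1 and 0.374 FPKM in YUMM1.7) and Tmem56 (3.27 FPKM in YUMM2.1, 0.0417 FPKM in YUMM1.1 and 0.0206 FPKM in YUMM1.7). Speer3 shares 15.3% of its words with other genes. The 48 genes ranged from 3.27 to 293 FPKM in YUMM2.1 with a median of 8.93, and their medians were 0.403 FPKM in YUMM1.1 and 0.213 FPKM in YUMM1.7. Of the 48, 30 were below 1 FPKM in both other lines, 4 were listed at 0 in YUMM1.1 and 5 in YUMM1.7.

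**Figure D2:**
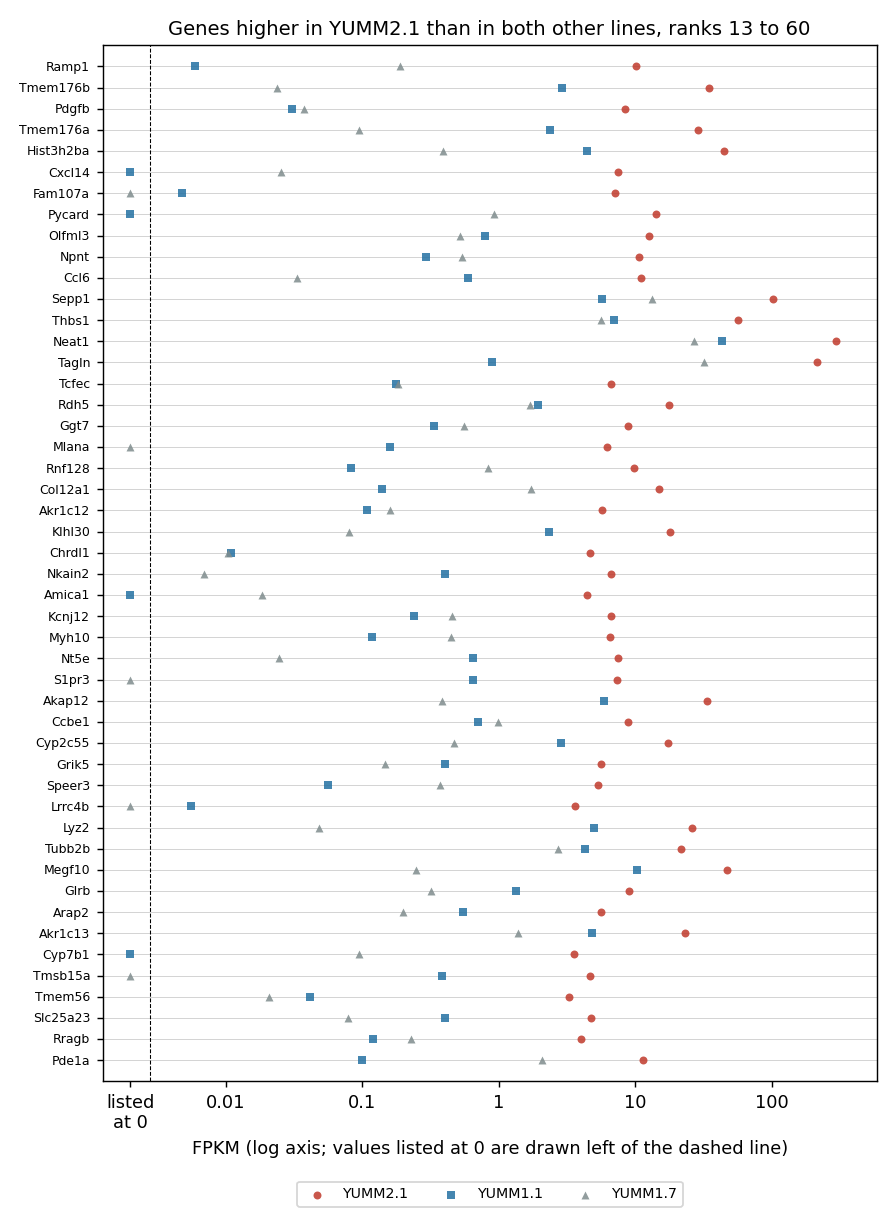
FPKM on a log axis for the 48 genes ranked 13 to 60 among those higher in YUMM2.1, with 1 point per line and 1 library each; values listed at 0 are drawn left of the dashed line. The YUMM2.1 points lie between 3.27 and 293 FPKM, and the other lines change places from gene to gene.

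Among the lower genes, Cdkn2a was listed at 0 FPKM in YUMM2.1, 8.41 FPKM in YUMM1.1 and 5.84 FPKM in YUMM1.7. Other expressed genes around it on chromosome 4 were also at or near 0 in YUMM2.1, though not all of them were expressed in both other lines. From Mllt3 to Izumo3 the annotation holds 43 protein-coding genes, 41 of them in the table, of which 7 were expressed in at least 1 line. All 7 were below 0.05 FPKM in YUMM2.1, and 5 of them were listed at 0 there. The ends of the run and this limit were set with the values known, so the share is a description and no test. Mtap, an enzyme of methionine salvage, and Klhl9, an adaptor of a ubiquitin ligase, belonged to the 12 furthest. Cdkn2b, which encodes the INK4B inhibitor, was listed at 0 FPKM in YUMM2.1, 58.5 FPKM in YUMM1.1 and 0.587 FPKM in YUMM1.7, so it met no threshold against YUMM1.7. Mllt3, a reader of acetylated histones, had 0.0426 FPKM in YUMM2.1, 2.37 FPKM in YUMM1.1 and 2.08 FPKM in YUMM1.7, and Ptplad2 (Hacd4), an enzyme of fatty acid elongation, was listed at 0 FPKM in YUMM2.1, 2.02 FPKM in YUMM1.1 and 2.04 FPKM in YUMM1.7. Dmrta1 was listed at 0 FPKM in YUMM2.1, 0.0685 FPKM in YUMM1.1 and 1.58 FPKM in YUMM1.7, so it was near 0 in YUMM1.1 as well. On one side of the run the nearest expressed genes were expressed in all lines, with 495 FPKM in YUMM2.1, 1432 FPKM in YUMM1.1 and 2956 FPKM in YUMM1.7 for the ribosomal protein gene Rps6 and 2.28 FPKM in YUMM2.1, 1.69 FPKM in YUMM1.1 and 2.89 FPKM in YUMM1.7 for Dennd4c. On the other side the nearest, Tusc1, was above 1 FPKM in YUMM2.1 alone, at 3.46 FPKM in YUMM2.1, 0.2996 FPKM in YUMM1.1 and 0.407 FPKM in YUMM1.7, and Caap1, named 5830433M19Rik in the table, had similar deposited values, at 2.39 FPKM in YUMM2.1, 2.32 FPKM in YUMM1.1 and 2.63 FPKM in YUMM1.7. No DNA data were used here, so the copy number of the run was not tested.

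**Figure D3:**
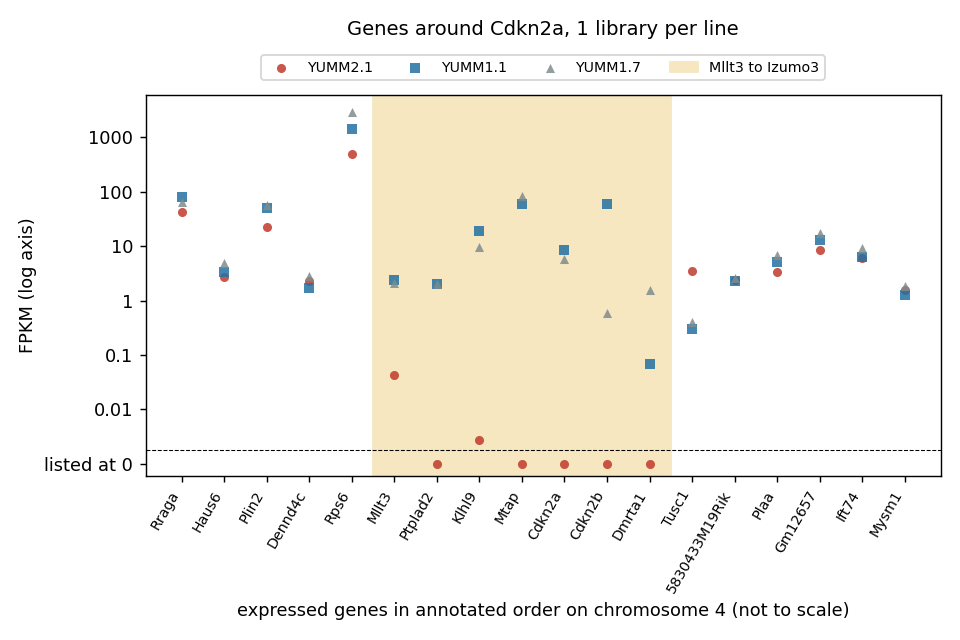
FPKM on a log axis for the expressed genes around Cdkn2a in annotated order, with 1 point per line and 1 library each; values listed at 0 are drawn below the dashed line. All 7 expressed genes in the shaded run from Mllt3 to Izumo3, with ends set after the values were known, are below 0.05 FPKM in YUMM2.1. The flanking genes have values above 1 FPKM there, Tusc1 among them.

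Cytoskeletal and neuronal genes were also among the lower genes. Tuba1a, an alpha tubulin, had 200.2 FPKM in YUMM2.1, against 1782 FPKM in YUMM1.1 and 805 FPKM in YUMM1.7. Its neighbor Tuba1c had 3.18 FPKM in YUMM2.1, 58.3 FPKM in YUMM1.1 and 187 FPKM in YUMM1.7, and Tuba1b had 212 FPKM in YUMM2.1, 407 FPKM in YUMM1.1 and 1030.1 FPKM in YUMM1.7. Tuba1a shares 72.9% of its 50-base words with other genes, mostly Tuba1c, so levels of single alpha tubulins are uncertain, but all 3 were lowest in YUMM2.1. Gsn, the actin-severing protein gelsolin, had 21.1 FPKM in YUMM2.1, against 101 FPKM in YUMM1.1 and 175 FPKM in YUMM1.7. Dbn1, the actin-binding protein drebrin, had 1.48 FPKM in YUMM2.1, against 25.8 FPKM in YUMM1.1 and 13.3 FPKM in YUMM1.7, and the adjacent gene Prr7, a membrane protein of synapses, had 0.678 FPKM in YUMM2.1, against 12.3 FPKM in YUMM1.1 and 5.82 FPKM in YUMM1.7. The order of the other lines differed within this group, with Gsn higher in YUMM1.7 and the other 2 higher in YUMM1.1. Nefm, the medium neurofilament chain, had 0.206 FPKM in YUMM2.1, against 4.3995 FPKM in YUMM1.1 and 41.5 FPKM in YUMM1.7. Its neighbor Nefl, the light chain, was also lowest in YUMM2.1 but missed the threshold against YUMM1.1, at 2.01 FPKM in YUMM2.1, 7.72 FPKM in YUMM1.1 and 54.6 FPKM in YUMM1.7. Basp1, a membrane protein of growth cones, had 0.377 FPKM in YUMM2.1, against 8.16 FPKM in YUMM1.1 and 10.1 FPKM in YUMM1.7. Ctxn1, a small neuronal membrane protein, had 3.62 FPKM in YUMM2.1, 26.7 FPKM in YUMM1.1 and 20.5 FPKM in YUMM1.7. Dynlt1f, a dynein light chain, had 0.0358 FPKM in YUMM2.1, 4.57 FPKM in YUMM1.1 and 34.4 FPKM in YUMM1.7, but 88% of its words occur in near-copies of the gene.

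Transcriptional regulators were few among the lower genes. Ssbp3, a cofactor of LIM-homeodomain complexes, had 0.00365 FPKM in YUMM2.1, against 5.66 FPKM in YUMM1.1 and 13.5 FPKM in YUMM1.7. Eid2, an inhibitor of EP300-dependent transcription, had 1.07 FPKM in YUMM2.1, against 12.5 FPKM in YUMM1.1 and 12.3 FPKM in YUMM1.7. Ssbp3 lies on chromosome 4, and the expressed genes next to it, Mrpl37 (9.78 FPKM in YUMM2.1, 16.8 FPKM in YUMM1.1 and 35.2 FPKM in YUMM1.7) and Ttc4 (9.39 FPKM in YUMM2.1, 13.5 FPKM in YUMM1.1 and 19.5 FPKM in YUMM1.7), were also lowest in YUMM2.1, with differences of -0.73 and -0.48 from the nearer line. Hist1h4i, a histone H4 gene, had 11.97 FPKM in YUMM2.1, 55.5 FPKM in YUMM1.1 and 60.7 FPKM in YUMM1.7, with 28.9% of its words shared.

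Metabolic genes on the lower side covered several pathways. Tspo, a cholesterol-binding protein of the outer mitochondrial membrane, had 157 FPKM in YUMM2.1, against 819 FPKM in YUMM1.1 and 1449.5 FPKM in YUMM1.7. Hebp1, a heme-binding protein, had 5.13 FPKM in YUMM2.1, against 29.9 FPKM in YUMM1.1 and 395 FPKM in YUMM1.7. Sat1, which acetylates polyamines for their breakdown, had 49.2 FPKM in YUMM2.1, against 239.8 FPKM in YUMM1.1 and 389 FPKM in YUMM1.7. For all 3 YUMM2.1 was lowest and YUMM1.7 highest, with the widest spread in Hebp1. Other polyamine genes varied. Srm, spermidine synthase, had the same order as Sat1, with 27.8 FPKM in YUMM2.1, 50.6 FPKM in YUMM1.1 and 152.6 FPKM in YUMM1.7, and so did Paox, an oxidase of acetylated polyamines, with 1.83 FPKM in YUMM2.1, 2.02 FPKM in YUMM1.1 and 3.28 FPKM in YUMM1.7, both short of the threshold. Odc1, which starts polyamine synthesis, had 54.7 FPKM in YUMM2.1, 42.1 FPKM in YUMM1.1 and 185 FPKM in YUMM1.7, and Amd1 had 41.4 FPKM in YUMM2.1, 25.4 FPKM in YUMM1.1 and 19.4 FPKM in YUMM1.7. Slc19a1, the reduced folate carrier, had 0.0313 FPKM in YUMM2.1, against 4.397 FPKM in YUMM1.1 and 12.9 FPKM in YUMM1.7. The proton-coupled folate transporter Slc46a1 was low in all lines, at 0.906 FPKM in YUMM2.1, 1.79 FPKM in YUMM1.1 and 1.01 FPKM in YUMM1.7. Of these folate transporters, Slc19a1 lay 2 or more below both lines and Slc46a1 did not. Acot7, a thioesterase of long-chain acyl-CoA, had 26.4 FPKM in YUMM2.1, against 111 FPKM in YUMM1.1 and 135 FPKM in YUMM1.7. Nat2, an arylamine acetyltransferase, had 0.502 FPKM in YUMM2.1, against 7.99 FPKM in YUMM1.1 and 10.5 FPKM in YUMM1.7. Gatsl3 (Castor1), an arginine sensor upstream of mTORC1, had 0.114 FPKM in YUMM2.1, against 6.33 FPKM in YUMM1.1 and 5.94 FPKM in YUMM1.7.

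Surface, secreted and immune genes completed the lower side. Tfpi, an inhibitor of the tissue factor pathway of coagulation, had 0.132 FPKM in YUMM2.1, against 18.8 FPKM in YUMM1.1 and 8.29 FPKM in YUMM1.7 and was the first of the 31 by rank. F3, which encodes tissue factor itself, was higher in YUMM2.1 but just under the threshold, at 29.5 FPKM in YUMM2.1, 6.75 FPKM in YUMM1.1 and 1.07 FPKM in YUMM1.7. The inhibitor and its target thus differed in opposite directions. S100a10, the partner of annexin A2, had 1658 FPKM in YUMM2.1, against 8067 FPKM in YUMM1.1 and 8560 FPKM in YUMM1.7, which was 4.87-fold below YUMM1.1 and 5.16-fold below YUMM1.7. Its neighbor S100a11 had 879 FPKM in YUMM2.1, 2364 FPKM in YUMM1.1 and 3301 FPKM in YUMM1.7, and Anxa2 had 767 FPKM in YUMM2.1, 1727 FPKM in YUMM1.1 and 853 FPKM in YUMM1.7. Ly6c1, a GPI-linked antigen, had 1.27 FPKM in YUMM2.1, against 94.9 FPKM in YUMM1.1 and 9.69 FPKM in YUMM1.7, with 36.7% of its words shared, mostly with Ly6c2. It lies beside Ly6a, and Ly6e, another gene of the cluster, had 0.0474 FPKM in YUMM2.1, 2.85 FPKM in YUMM1.1 and 38.7 FPKM in YUMM1.7. YUMM2.1 was the lowest line for all 3 Ly6 genes, but YUMM1.1 was highest for Ly6a and Ly6c1 and YUMM1.7 for Ly6e. Lgals9, the glycan-binding galectin 9, had 4.65 FPKM in YUMM2.1, against 32.8 FPKM in YUMM1.1 and 23.2 FPKM in YUMM1.7. Tnfaip2, induced by TNF, had 8.64 FPKM in YUMM2.1, against 39.98 FPKM in YUMM1.1 and 102 FPKM in YUMM1.7. Dfna5 (gasdermin E), which forms membrane pores after cleavage by caspase 3, had 0.781 FPKM in YUMM2.1, against 10.5 FPKM in YUMM1.1 and 7.95 FPKM in YUMM1.7. Serpinb6a, an intracellular protease inhibitor, had 241 FPKM in YUMM2.1, against 1125 FPKM in YUMM1.1 and 978 FPKM in YUMM1.7. Asgr1, a subunit of the asialoglycoprotein receptor, had 1.35 FPKM in YUMM2.1, 10.3 FPKM in YUMM1.1 and 10.8 FPKM in YUMM1.7, and Mrgprf, an orphan G protein-coupled receptor, had 0.188 FPKM in YUMM2.1, 18.8 FPKM in YUMM1.1 and 5.84 FPKM in YUMM1.7. Serf1 had 14.3 FPKM in YUMM2.1, 61.02 FPKM in YUMM1.1 and 76.5 FPKM in YUMM1.7. The 31 lower genes had medians of 1.35 FPKM in YUMM2.1, 18.8 FPKM in YUMM1.1 and 20.8 FPKM in YUMM1.7, and 13 of them were below 1 FPKM in YUMM2.1.

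**Figure D4:**
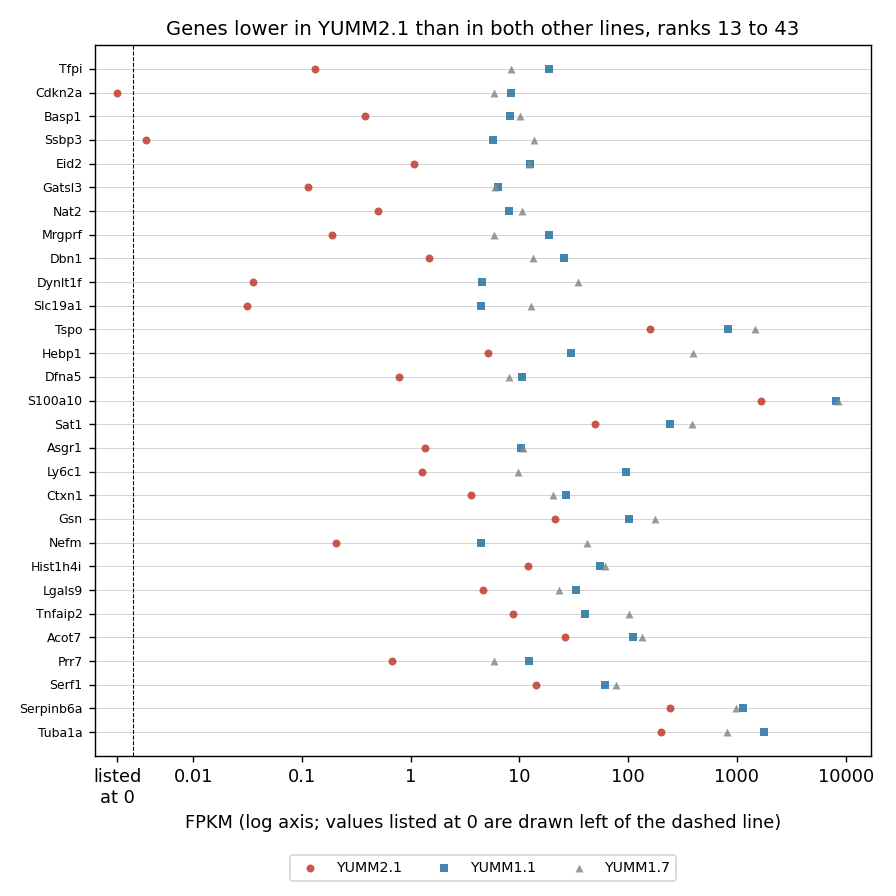
FPKM on a log axis for 29 of the 31 genes ranked 13 to 43 among those lower in YUMM2.1, with 1 point per line and 1 library each; values listed at 0 are drawn left of the dashed line. S100a10 is the most abundant, at 1658 FPKM in YUMM2.1, and Cdkn2a is listed at 0 there.

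YUMM1.7 was within 1 of YUMM1.1 for 35 of the 48 higher and 20 of the 31 lower genes, against 76.6% of all expressed genes, and since the rule places both lines on one side of YUMM2.1 nothing is read from these counts. The genes for which they lay further apart included Tagln, where YUMM1.7 was the nearer line, and Hebp1, Nefm and Dynlt1f, where YUMM1.1 was. YUMM1.1 was the nearer line for 28 of the higher and 18 of the lower genes. Just inside the threshold lay Rragb and Pde1a on the higher side, with smaller differences of 2.03 and 2.02, and Serpinb6a and Tuba1a on the lower side, both within 0.02 of it. Just outside lay Sema3e and Hoxd13 at 1.99 above, and H2-Ke6 and Nudt7 at 1.99 and 1.98 below.

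Chromosome and transcript length were not used by the rule. Of the lower genes among the 120, chromosome 4 held 8 and has 6.17% of expressed symbols, followed by chromosome 11 with 7 (8.29%), chromosome 15 with 6 (3.89%), chromosome 13 with 5 (3.86%) and chromosome 12 with 4 (3.55%). Chromosomes 4 and 12 held 0 higher genes, as did chromosome 8, which held 3 lower genes (5.27%), and chromosome 16, which held 0 lower genes (3.14%). No chromosome held more than 6 higher genes, the number on chromosomes 3, 6 and 13. All expressed genes on chromosomes 4, 8 and 15 had median differences of -0.51, -0.51 and -0.55 from YUMM1.1 and of -0.70, -0.78 and -0.80 from YUMM1.7. The medians of chromosomes 11, 12 and 13 were -0.17, -0.03 and -0.34 from YUMM1.1 and -0.07, 0.31 and -0.37 from YUMM1.7. The part of these chromosome-wide differences in the lower genes was not tested. Lower genes after rank 12 were short, with a median transcript of 1586 nt. The medians were 2847 nt for the higher genes after rank 12 and 3341 nt for all expressed genes. Length classes were counted over the 120 genes, small RNAs included. Of 5 equal classes of length, the shortest, up to 1871 nt, held 28 of 47 lower and 22 of 66 higher genes with a length. Its median differences over all expressed genes were -0.37 from YUMM1.1 and -0.83 from YUMM1.7. The longest class held 0 lower and 13 higher genes, with medians of 0.19 and 0.39. After centering within the length classes, 42 of the 48 higher and 14 of the 31 lower genes kept a difference of 2. The part of length beyond this was not tested.

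Neighbors in the annotation were compared with expressed genes at large. Pairs joined a higher gene to an expressed protein-coding gene within 5 positions, other higher genes included. In 29 of 332 such pairs (8.73%) the neighbor lay 1 or more above both lines, against 3.13% of all expressed genes. In 30 of 231 such pairs for lower genes (12.99%) it lay 1 or more below both, against 4.15%. In 12 of the 29 and 8 of the 30 the neighbor itself met the rule. Such pairs were counted once from each gene. Pairs are therefore not separate genes, and these shares are not like those of all expressed genes. Neighboring higher genes were Rab17, Ramp1 and Klhl30 on chromosome 1, Acox2 and Fam107a on chromosome 14, and the Tmem176 and Akr1c pairs. On chromosome X, Tmsb15a lay beside 1700008I05Rik, which met the rule but was left out of the ranking. Next to Ccbe1, Pmaip1, a BH3-only gene of the p53 response, had 5.34 FPKM in YUMM2.1, 0.671 FPKM in YUMM1.1 and 0.597 FPKM in YUMM1.7. Close to Mlana lay Il33, and 2 positions from Col12a1 lay Tmem30a, a subunit of phospholipid flippases, with 79.2 FPKM in YUMM2.1, 21.1 FPKM in YUMM1.1 and 20.8 FPKM in YUMM1.7. Beside Amica1, Mpzl3 had 4.39 FPKM in YUMM2.1, 0.246 FPKM in YUMM1.1 and 0.513 FPKM in YUMM1.7. The medians of chromosomes 4, 8 and 15 given above were the lowest as deposited, and they were not recomputed after the scalings. Their part in these shares was not tested.

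Gene lists gave the wider context, although they were drawn up with earlier results on these libraries known and hold some of the genes described. Of all expressed genes, 3.13% lay 1 or more above both lines and 4.15% below as deposited, 14.1% and 0.695% after the sum scaling, and 0.928% and 2.22% with a pseudocount of 5, and the list counts are to be read against these. In the matrix list, 9 of 51 expressed genes lay 1 or more above both lines, and 6 of them were already chosen by the rule. The 3 below both were Ltbp4, Ecm1 and Nid1. The list's medians were 0.27 against YUMM1.1 and -0.12 against YUMM1.7. Against YUMM1.1 alone 15 lay 1 or more above and 10 below, and against YUMM1.7 alone 19 and 16. Summed FPKM over the list was 4247 in YUMM2.1, 4708 in YUMM1.1 and 5762 in YUMM1.7. Tnc, the matrix glycoprotein tenascin C, had 9.72 FPKM in YUMM2.1, 0.0126 FPKM in YUMM1.1 and 2.58 FPKM in YUMM1.7, and Col5a2 had 130.05 FPKM in YUMM2.1, 51.8 FPKM in YUMM1.1 and 20.02 FPKM in YUMM1.7, both short of the threshold. The count of 9 was 8 with a pseudocount of 5 and 12 after the sum scaling. In the Nrf2 and glutathione list, 8 of 40 expressed genes lay 1 or more below both lines and 2 above, with medians of 0.05 and -0.63. Besides Nqo1 these were Cbr1, Pgd, G6pdx, Gstp1, Hmox1, Taldo1 and Cbr3. G6pdx, which feeds the pentose phosphate pathway, had 11.4 FPKM in YUMM2.1, 35.9 FPKM in YUMM1.1 and 34.6 FPKM in YUMM1.7, and Pgd, the next dehydrogenase of that pathway, had 29.9 FPKM in YUMM2.1, 93.7 FPKM in YUMM1.1 and 125 FPKM in YUMM1.7. The count of 8 became 5 with a common upper quartile, 4 after centering by length and 1 after the sum scaling. Gsta3 and Gstk1 were the 2 above, and Gsta3 had 17.1 FPKM in YUMM2.1, 0.389 FPKM in YUMM1.1 and 4.72 FPKM in YUMM1.7.

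Other lists held fewer genes. In the homeobox list, 4 of 35 expressed genes lay 1 or more above both lines and 0 below, led by Hoxd13, at 2.98 FPKM in YUMM2.1, 0 FPKM in YUMM1.1 and 0 FPKM in YUMM1.7. The other 3, Hoxa3, Hoxa5 and Hoxa10, were below 1.3 FPKM in YUMM2.1 and below 0.05 FPKM elsewhere, so none remained at a minimum of 5 FPKM, and the count was 12 after the sum scaling and 0 with a pseudocount of 5. In the adhesion list 4 of 36 lay above, 12 after the sum scaling and 1 with a pseudocount of 5, and 0 lay below, with 75.1 FPKM in YUMM2.1, 21.8 FPKM in YUMM1.1 and 3.49 FPKM in YUMM1.7 for Ncam1 and 4.32 FPKM in YUMM2.1, 0.855 FPKM in YUMM1.1 and 0.0319 FPKM in YUMM1.7 for Itgb4. In the p53 and cell death list 4 of 32 lay above (Pmaip1, Fas, Gadd45a and Casp4) and 1 below (Bad), and the 4 above became 5 and 0 under the same settings. Gadd45a had 13.3 FPKM in YUMM2.1, 4.6996 FPKM in YUMM1.1 and 4.86 FPKM in YUMM1.7. In the MAPK and AP-1 list 3 of 30 lay below (Jund, Maff and Fosl1) and 0 above, but 0 lay below after the sum scaling. Jund had 3.43 FPKM in YUMM2.1, 16.4 FPKM in YUMM1.1 and 15.9 FPKM in YUMM1.7. The lipid and peroxisome list had 4 of 45 genes above and 5 below, and 8 and 3 after the sum scaling. The cytoskeleton and contractile list had 5 of 32 above and 4 below, and 9 and 2 after that scaling. The list of Ly6 and interferon-stimulated genes had 0 of 36 above and 3 below, all of them Ly6 genes. Of the 79 genes, 13 were in any of the 21 lists.

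**Figure D5:**
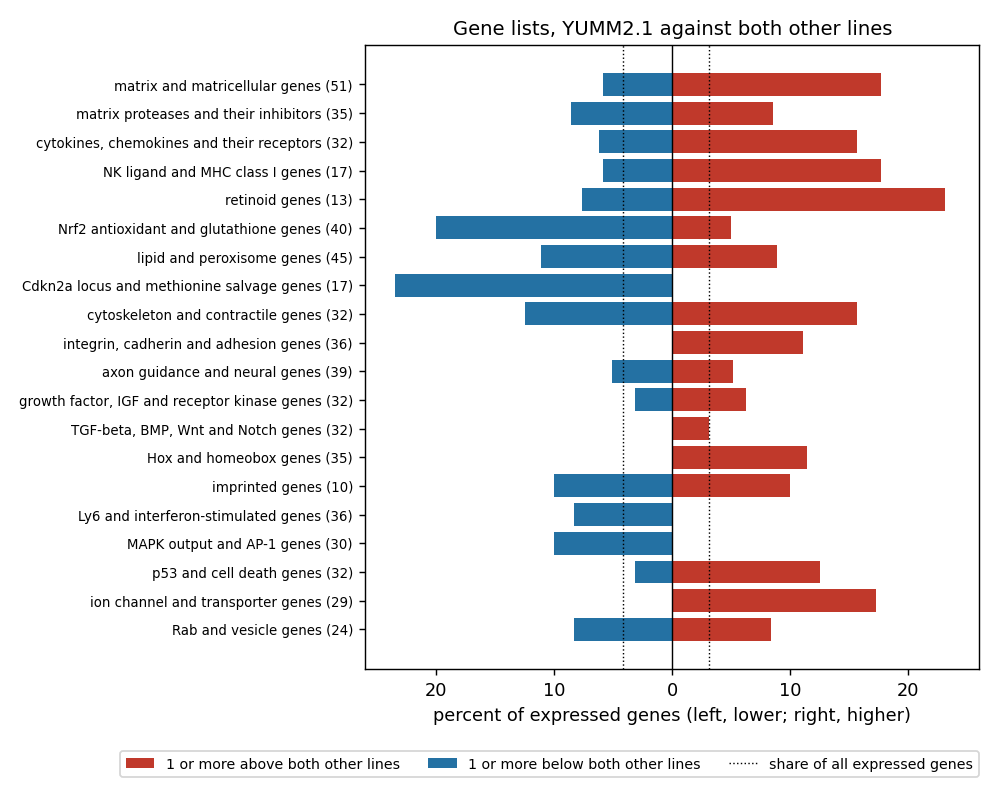
Percent of each list's expressed genes (number in parentheses) that lay 1 or more above both other lines (right) or 1 or more below both (left) in YUMM2.1, for lists with at least 10 expressed genes. Dotted lines mark 3.13% above and 4.15% below for all expressed genes; the matrix list stands at 9 of 51 above and the Nrf2 and glutathione list at 8 of 40 below.

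The sequence before the gene starts was searched for short motifs. RefSeq windows of 250 bases before to 50 after the start were matched for 47 of 60 higher and 33 of 43 lower genes, the 12 furthest included. The antioxidant response element, searched as TGACNNNGC on both strands, occurred in 12.8% of the higher and 15.2% of the lower genes, against 12.5% of all 27025 windows. An AP-1 site, searched as TGANTCA, occurred in 5 of 47 (10.6%) and 1 of 33 (3.03%), against 7.93%. The M-box core, searched as CATGTG, occurred in 6.38% and 9.09%, against 14.1%. Also searched were the E-box (4.26% and 6.06%, against 7.24%), the TATA box (12.8% and 12.1%, against 14.2%) and the CArG box (4.26% and 3.03%, against 1.57%). The 27025 windows are not limited to expressed genes. The antioxidant and AP-1 motifs can overlap, and these are letter matches only.

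Markers of other cell types differed between the lines as well. Summed over 15 fibroblast and pericyte markers the values were 617 FPKM in YUMM2.1, 150 in YUMM1.1 and 382 in YUMM1.7. Acta2 and Tagln made up most of the sum in YUMM2.1, and Tagln was chosen by the rule. Of the 10 expressed markers, 4 lay 1 or more above YUMM1.7 and 5 lay 1 or more below it, with a median of -0.79. Against YUMM1.1 these counts were 3 and 1, with a median of 0.35. Col1a2, among those below YUMM1.7, had 0.651 FPKM in YUMM2.1, 0.0367 FPKM in YUMM1.1 and 127 FPKM in YUMM1.7. Summed Schwann and neural crest markers were 430, 1193 and 30.3 FPKM in the same order. Endothelial markers summed to 0.380, 0.0470 and 0.289 FPKM, and epithelial markers to 3.14, 8.19 and 6.61 FPKM. In bulk RNA, fewer cells of a type and less RNA per cell cannot be told apart, and the part of any such cells in the matrix and contractile genes was not tested.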

How the data were processed

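Total RNA of 3 mouse melanoma cell lines was sequenced, 1 library per line. Per the submitters' processing notes TopHat2 2.0.9 placed the reads, and Cufflinks with Cuffnorm gave the expression values. The sources used here do not give the genome build or annotation. The authors deposited FPKM values for 25791 gene symbols, with 0 repeats, and these were taken as deposited. Depth was read from the spacing of low values times transcript length. For YUMM2.1, 81.8% of these were whole multiples of the step to within 0.2, for YUMM1.1 83.2% and for YUMM1.7 76.8%.

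Values were read as log2(FPKM + 1) for symbols with at least 1 FPKM in at least 1 line. Every difference is YUMM2.1 minus another line. The genes and lists were chosen with earlier results of these data known. Genes on each side were ranked by the smaller difference, without predicted genes, small RNAs and pseudogenes, and every gene after rank 12 is named except 2 lower genes that are not reported here. List genes and neighbors were named mainly at a difference of 1 or more from both lines. The planned limit of 6 per list was passed in some lists, such as the Nrf2 and glutathione list. Relatives of the genes, such as Calcrl and Myh9, were chosen after their values were seen.

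Gene names, order and promoter windows came from RefSeq (GRCm38.p6) and transcript lengths from GENCODE M21, which need not be the annotation the authors used. A length was found for 95.3% and a chromosome for 95.6% of expressed symbols. Runs of 50 bases shared between transcripts of different genes were counted. The depth estimate and the rule were tested on simulated data. Python 3.11.15, numpy 2.4.6, pandas 2.3.3 and matplotlib 3.10.9 were used. Alternatives were pseudocounts of 0.1 and 5, no filter, a filter at 5 FPKM, 3 scalings, leaving out predicted genes or symbols listed at 0, centering within 5 classes of transcript length, and differences of 1.5 and 3.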

Additional observations from a re-analysis of the deposited data

How the results depend on the processing

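No paired analysis was possible because each line has 1 library, and for the same reason no library could be left out. The 71 higher and 49 lower genes became 205 and 110 with a pseudocount of 0.1, and 21 and 13 with a pseudocount of 5. They became 174 and 24 with a common FPKM sum. Centering within length classes left 31 lower genes. A difference of 1.5 gave 149 and 125 genes, and a difference of 3 gave 24 and 15. The other settings kept both counts within 1.5 times. Of the 48 higher genes named, 7 kept a difference of 2 under each of the 10 settings (Tmem176a, Tmem176b, Hist3h2ba, Sepp1, Thbs1, Neat1 and Tagln). Apart from the pseudocount of 5, 42 kept it under every setting that still held them. Not every setting held all 48, since the filter at 5 FPKM left 40 and leaving out symbols listed at 0 left 39. Of the 31 lower genes, 0 kept it under every setting, and 7 did so apart from the pseudocount of 5 (among them Tfpi, Basp1, Ssbp3, Dynlt1f, Slc19a1 and Nefm). The sides are not compared by these counts, because the settings did not press on them alike. The filters and the leaving out of symbols do not alter a gene's difference, and a pseudocount of 0.1 only enlarged it. All 3 scalings raised YUMM2.1 against the other lines, which favored the higher genes. None of the 79 changed direction under any of these settings. Nothing is read from this, since a pseudocount cannot reverse a difference and the genes were chosen at a difference of 2. Of 420 list counts across settings, 342 stayed within 1.5 times and 78 did not, 26 of these after the sum scaling. The cause of these changes was not tested. At the implied depths, values near 0.02 FPKM on a 2 kb transcript rest on about 3 fragments, and 7 of the 48 higher genes were at or below that in YUMM1.1 and 12 in YUMM1.7.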

Other observations

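Small RNAs and predicted genes were left out of the ranking but met the same rule, 11 higher and 6 lower in YUMM2.1. Snora65, a small nucleolar RNA, was listed at 46.7 FPKM in YUMM2.1, 0 FPKM in YUMM1.1 and 0 FPKM in YUMM1.7, and Mir7-1, a microRNA precursor, at 38.7 FPKM in YUMM2.1, 0 FPKM in YUMM1.1 and 0 FPKM in YUMM1.7. On the lower side Snora69 was listed at 0 FPKM in YUMM2.1, 16.3 FPKM in YUMM1.1 and 154 FPKM in YUMM1.7 and Snord118, the U8 small nucleolar RNA, at 4.59 FPKM in YUMM2.1, 26.8 FPKM in YUMM1.1 and 106 FPKM in YUMM1.7. How the authors counted such short transcripts is not given in the sources used here.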
